A study of Mus musculus with 8 samples.

Results

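The nuclear genes of the mitochondrial respiratory chain were followed in 2 mouse cell lines, each grown in transwell co-culture with the other. A gene was taken when a probe on the array named a nuclear gene whose symbol starts with Ndufa, Ndufb, Ndufs, Ndufv, Uqcr, Cox4i, Cox5, Cox6, Cox7, Cox8 or Atp5, or is Sdha, Sdhb, Sdhc, Sdhd, Cyc1 or Cycs; pseudogenes and assembly factors named Ndufaf were left out. The rule found 116 of 39429 probes and 85 genes: 36 of complex I, 4 of complex II, 9 of complex III, 18 of complex IV, 17 of complex V and Cycs, the gene of cytochrome c. Another 3 genes that fit the rule, Ndufb1, Ndufb4b and Ndufb4c, had no probe.

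Complexes I and II pass electrons from NADH and succinate to ubiquinone, complex III hands them to cytochrome c, and complex IV gives them to oxygen. Proton pumping by complexes I, III and IV drives ATP synthesis by complex V. Most subunits are encoded in the nucleus, with a small core set encoded in mitochondrial DNA, and fat cells and macrophages are both known to alter respiration with differentiation or activation.

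The samples were 4 arrays of 3T3-L1 pre-adipocytes (3T3L-1 in the labels), a mouse embryonic fibroblast line that can become adipocytes, and 4 arrays of macrophages of the line Raw264.7, which derives from a mouse leukaemia. All cells were taken from co-culture at 48 h, so the untreated controls (NT) had been co-cultured too. Each line had 1 array for NT, 1 for cortisol (C, 100 µM), 1 for serotonin (S, 100 µM) and 1 for both hormones together (CS, 100 µM of each by the labels). Cell RNA was labelled with Cy5 and a common reference RNA with Cy3 on every array, and values below are log2 ratios of Cy5 to Cy3, so that a difference of 1 is a 2-fold difference.

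The 8 arrays lay on 2 slides, 1 per cell line, so that slide and line cannot be told apart, and each treatment had the same position on both slides. The study's methods describe 2 co-culture set-ups, with the harvested line in the lower well and cell numbers that differed between them. Set-up and line therefore cannot be told apart either. Of all spots, 43.7 to 47.8% were well above background in both channels. The lines matched their names: the summed Cy5 signal of 12 fibroblast markers, after quantile normalisation, was 371000 to 518000 units on 3T3-L1 arrays against 11000 to 11900 on macrophage arrays, and that of 10 macrophage markers was 11000 to 23200 against 171000 to 205000. On the 3T3-L1 arrays, 7 of the 10 macrophage markers were above background in Cy5 on all 4 (Csf1r, Ptprc, Itgam, Lyz2, Cd14, Laptm5 and Tyrobp) and 3 on none (Adgre1, Spi1 and Fcgr1). Of 8 markers of mature adipocytes, Fabp4, Lpl and Pparg were above background on all 4 of the 3T3-L1 arrays, Lipe on 3, and Adipoq, Plin1, Cidec and Cebpa on none. Fabp4 read 0.02 (NT), 0.01 (C), 2.26 (S) and 2.47 (CS) there, and the summed signal of this list was 19600, 20900, 45100 and 47500 units. The macrophage arrays did not read lower on this list, with Fabp4 at 1.72 to 2.94 and summed signals of 45600 to 65500 units. The labels of the arrays C and S are in doubt. Fkbp5, a glucocorticoid receptor target, was 2.49-fold higher than NT on the 3T3-L1 array labelled S and 1.1-fold on that labelled C; Zbtb16, another such target, was 3.82-fold higher on S and 1.14-fold lower on C. The log ratios of the 3T3-L1 arrays labelled S and CS had a correlation of 0.98 over 13172 probes. Treated arrays are called here by the label they carry, and the counts between the lines, in which each label occurs once per line, are also given without the arrays labelled C and S, with the members whose call then changed.

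Of the 85 genes, 67 were measured on all 8 arrays and entered the tests. Another 13 were above background on all 8 arrays but had a spot marked as an outlier by the scanner on some (Atp5b, Atp5j, Atp5md, Cox4i1, Cox5b, Cox6a1, Cyc1, Ndufa10, Ndufa12, Ndufa13, Ndufb7, Ndufs4 and Ndufs6). The remaining 5, Cox4i2, Cox7b2, Cox8b, Cox8c and Ndufa4l2, were not above background in both channels on at least 1 array. Cox7b2, Cox8b and Cox8c had no array above background in Cy5; Cox8b is a heart and muscle isoform and Cox8c a testis isoform.

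Promoter sequence was available for 68 of the 85 genes (RefSeq, GRCm38.p6, from 250 bases before to 50 bases after the annotated start), and 5 of them are shown because they carry the isoform and complex II contrasts below or the classical motif of this gene group. Capitals mark a match to the NRF1 core CGCATGCG in Cycs and Atp5g2, or to the oestrogen-related receptor element TCAAGGTCA, on the other strand, in Sdhd and Atp5g3; Atp5g1 held neither of them, nor the GABPA motif CCGGAAGT or the YY1 motif AAGATGGC.
Cycs (chr6:50566520-50566819, minus strand): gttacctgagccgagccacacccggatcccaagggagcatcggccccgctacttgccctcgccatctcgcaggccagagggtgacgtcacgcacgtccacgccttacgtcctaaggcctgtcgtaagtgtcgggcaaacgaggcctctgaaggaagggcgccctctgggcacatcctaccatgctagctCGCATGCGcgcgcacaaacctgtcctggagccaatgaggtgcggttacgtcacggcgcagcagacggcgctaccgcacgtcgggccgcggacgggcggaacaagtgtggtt
Sdhd (chr9:50603800-50604099, minus strand): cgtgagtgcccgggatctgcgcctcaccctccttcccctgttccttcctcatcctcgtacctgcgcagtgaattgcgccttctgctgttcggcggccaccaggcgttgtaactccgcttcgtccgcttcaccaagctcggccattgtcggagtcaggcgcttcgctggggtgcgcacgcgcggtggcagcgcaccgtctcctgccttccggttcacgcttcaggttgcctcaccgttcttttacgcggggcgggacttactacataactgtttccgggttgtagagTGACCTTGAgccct
Atp5g1 (chr11:96075582-96075881, minus strand): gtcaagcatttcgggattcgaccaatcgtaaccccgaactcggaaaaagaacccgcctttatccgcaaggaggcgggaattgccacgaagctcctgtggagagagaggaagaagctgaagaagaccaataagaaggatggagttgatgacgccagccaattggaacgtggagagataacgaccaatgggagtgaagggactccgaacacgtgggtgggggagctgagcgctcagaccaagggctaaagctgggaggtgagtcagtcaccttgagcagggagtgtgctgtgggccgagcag
Atp5g2 (chr15:102670998-102671297, minus strand): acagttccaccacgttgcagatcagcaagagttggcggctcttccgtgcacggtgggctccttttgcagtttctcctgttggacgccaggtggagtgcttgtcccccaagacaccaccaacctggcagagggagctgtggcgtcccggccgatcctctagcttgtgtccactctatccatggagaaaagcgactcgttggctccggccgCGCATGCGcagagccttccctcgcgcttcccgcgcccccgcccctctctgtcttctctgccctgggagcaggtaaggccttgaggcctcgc
Atp5g3 (chr2:73911277-73911576, minus strand): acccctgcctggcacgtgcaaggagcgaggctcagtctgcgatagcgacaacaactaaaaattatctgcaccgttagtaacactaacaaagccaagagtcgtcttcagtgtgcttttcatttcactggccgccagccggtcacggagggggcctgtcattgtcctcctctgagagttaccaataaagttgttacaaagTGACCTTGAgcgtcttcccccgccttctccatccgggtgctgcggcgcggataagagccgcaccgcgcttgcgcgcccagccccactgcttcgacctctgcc

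Searched on both strands, the NRF1 core lay in 10 of the 68 promoters (14.7%), against 2.7% of the 17424 promoters of other coding genes. The 10 were those of Cycs, Uqcrc1, Uqcr11, Cox6a1, Ndufa8, Ndufa11, Atp5g2, Atp5j, Atp5k and Atp5l. The YY1 motif lay in 9 (13.2% against 3.5%), the GABPA motif in 5 (7.4% against 5.7%) and the receptor element in 2 (2.9% against 0.4%). These are matches of letters in a window, not binding sites. The promoters of Cox6a2, Ndufs1 and Sdhc, among 17 genes, were not in the table.

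Between the cell lines, the respiratory chain genes split in both directions. Of the 67 measured genes, 19 were higher in 3T3-L1 and 27 higher in macrophages (limma, line and treatment as terms, adjusted p under 0.05), which is 68.7% called. RNA came from whole cultures, in which fewer expressing cells and less RNA per cell cannot be told apart. Over all 10995 genes the same test called 74.3%, with 38.0% higher in 3T3-L1 and 36.3% higher in macrophages, so the members were called no more often than other genes. The 4 arrays of one line lay entirely above those of the other for 19 genes in the 3T3-L1 direction and 28 in the macrophage direction, where the shares over all genes were 35.5% and 34.8%. At least 2-fold differences were found in 12 members (17.9%) against 31.7% of all genes. The median difference of the members, 3T3-L1 minus macrophages, was -0.09, against 0.04 over all genes.

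The split depended on the scaling. When each array was centred on its median in place of the loess curve, 4 members were called higher in 3T3-L1 and 22 higher in macrophages, and with the Cy5 channel alone the counts were 11 and 21. The share of calls in the 3T3-L1 direction was thus 41.3%, 15.4% and 34.4%, and that of all genes moved from 51.2% to 39.1% and 40.9%. With median centring the 4 calls towards 3T3-L1 were those of Cox6a2, Ndufa7, Ndufb9 and Ndufv3. Every other member called in that direction with loess lost its call with that scaling. Without the arrays labelled C and S, the counts were 12 and 26, for which no share of all genes was computed. The 9 calls lost were those of Atp5j2, Cox6c, Cox8a, Ndufa11, Ndufb4, Uqcr10 and Uqcr11 towards 3T3-L1, and of Ndufb11 and Ndufv2 towards macrophages.

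**Figure D1:**
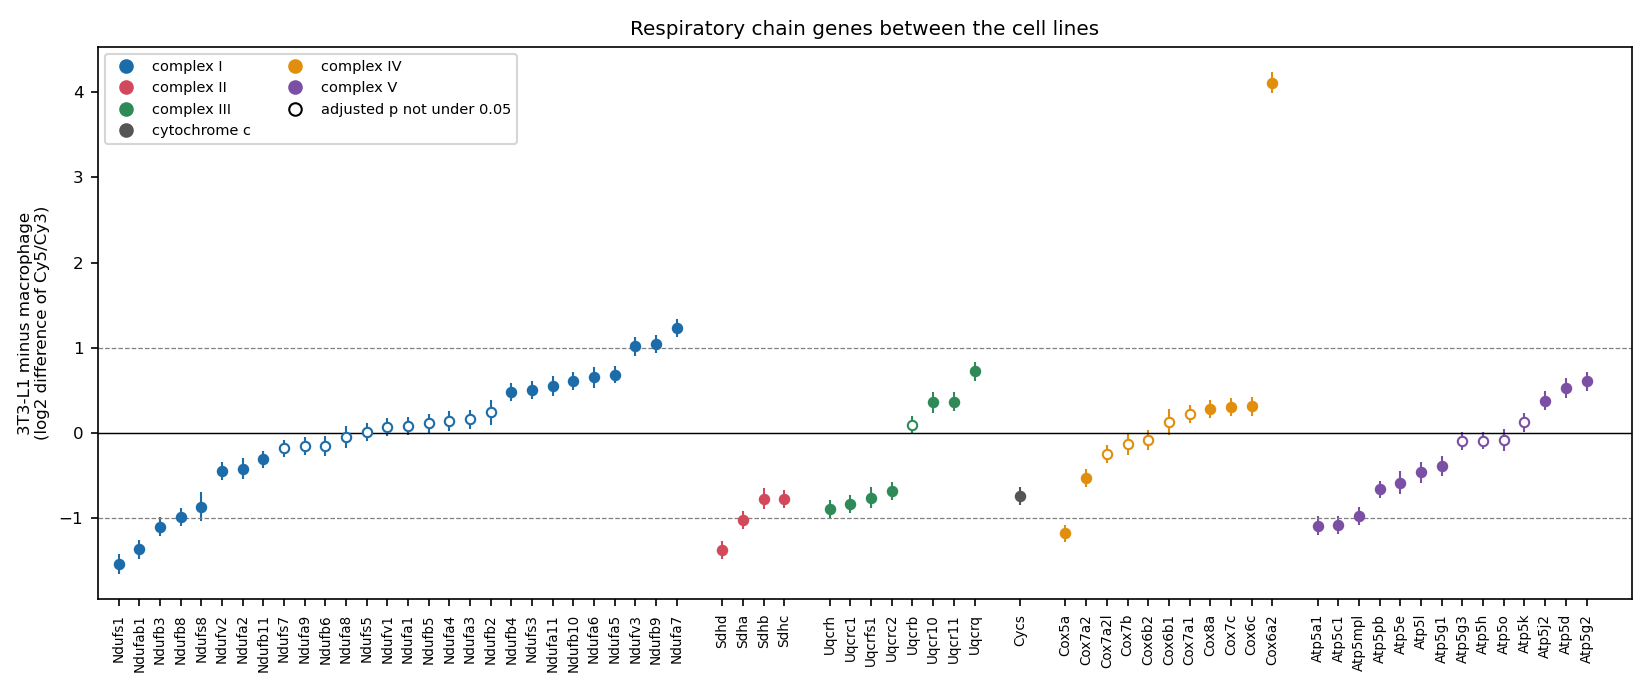
Difference between 3T3-L1 and macrophage arrays (log2, vertical axis) for 66 of the 67 measured genes, grouped and coloured by complex and sorted within it. Points are estimates from 4 arrays per line, bars 1 standard error, filled points have an adjusted p under 0.05, and dashed lines mark 2-fold; Cox6a2 at 4.11 stands above all others and the 4 genes of complex II all lie below 0.

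In complex I the calls were even, 9 in each direction of 29 measured (31.0%). Of all genes, 38.0% were called towards 3T3-L1 and 36.3% towards macrophages. The median of complex I was 0.07, against 0.04 over all genes. Ndufs1, which encodes the large iron-sulphur subunit of the NADH-oxidising arm, had the largest difference towards macrophages. Its log2 ratios were -0.93 (NT), -1.35 (C), -1.19 (S) and -1.08 (CS) in 3T3-L1, and 0.34, 0.44, 0.44 and 0.38 in macrophages. The lines did not overlap, and Ndufs1 was 2.91-fold higher in macrophages (difference -1.54, SE 0.12, limma adjusted p = 8.02e-07). Ndufs8, an iron-sulphur subunit of the arm that reduces ubiquinone, differed by -0.87 (SE 0.17, limma adjusted p = 9.00e-04; not called in the Cy5 channel alone, at -0.67). Ndufv2, of the NADH-oxidising arm, differed by -0.45 (SE 0.11).

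Among other core subunits that carry out electron transfer, Ndufs3 was higher in 3T3-L1 by 0.50 (SE 0.11), and Ndufs7 (-0.18, SE 0.10) and Ndufv1 (0.07, SE 0.10) did not pass the test. The 22 measured accessory subunits gave 8 calls towards 3T3-L1, 5 towards macrophages and 9 that did not pass. The shares of all genes called in these directions were 38.0% and 36.3%. This grouping by role was made after the values were known. Ndufab1, the mitochondrial acyl carrier protein, was 2.57-fold higher in macrophages (difference -1.36, SE 0.11), followed by Ndufb3 at 2.14-fold (-1.10, SE 0.11). Ndufb8, a subunit of the membrane arm, differed by -0.99.

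Ndufa7, an accessory subunit, led the other direction. Its ratios were 0.29 (NT), 0.47 (C), 0.40 (S) and 0.11 (CS) in 3T3-L1, and -0.92, -0.91, -0.81 and -1.04 in macrophages. All 4 of the 3T3-L1 arrays lay above all macrophage arrays, by 2.35-fold on average (1.23, SE 0.10, limma adjusted p = 1.76e-06). Ndufb9 was 2.06-fold higher in 3T3-L1 (1.04, SE 0.11) and Ndufv3 2.02-fold (1.02, SE 0.11). Ndufa5 was 1.61-fold higher (0.68, SE 0.10), with ratios of 0.64 to 0.73 in 3T3-L1 and -0.02 to 0.01 in macrophages. The Ndufb9 call did not hold in the Cy5 channel alone (0.37), nor did that of Ndufa5 (0.36), which was also lost with median centring (0.50).

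Complex II, succinate dehydrogenase, links the citric acid cycle to the chain and is encoded entirely in the nucleus. All 4 of its genes were higher in macrophages, with differences of -1.03 (SE 0.11) for the flavoprotein Sdha, -0.77 (SE 0.12) for the iron-sulphur protein Sdhb, and -0.77 (SE 0.11) and -1.37 (SE 0.11) for the membrane anchors Sdhc and Sdhd. Sdhd, whose promoter is printed above, had ratios of -0.99 (NT), -0.96 (C), -0.81 (S) and -0.90 (CS) in 3T3-L1 against 0.35, 0.34, 0.49 and 0.64 in macrophages. Sdha had -0.60, -0.77, -0.64 and -0.61 against 0.27, 0.35, 0.48 and 0.38. For none of the 4 genes did any 3T3-L1 array reach a macrophage array. The adjusted p in limma ranged from 8.64e-07 (Sdhd) to 2.11e-04 (Sdhb). Sdhc lost its call in the Cy5 channel alone (-0.16), which left 3 of 4, and under every other scaling all 4 were called.

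Complex III and cytochrome c carry electrons onwards to complex IV. Uqcrfs1, the Rieske iron-sulphur protein, was 1.69-fold higher in macrophages (-0.76, SE 0.13), and the core proteins Uqcrc1 and Uqcrc2 differed by -0.83 (SE 0.11) and -0.68 (SE 0.10). Uqcrfs1 turned to 0.26 in the Cy5 channel alone. Cyc1, the gene of cytochrome c1, had an outlier spot on the macrophage array labelled S and stood outside the test; its ratios were -0.51 to -0.17 on the 4 3T3-L1 arrays and -0.21 to -0.02 on 3 of the macrophage arrays, which overlap.

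Among the 5 small subunits of complex III, Uqcrq, Uqcr10 and Uqcr11 were higher in 3T3-L1 by 0.72 (SE 0.12), 0.36 (SE 0.12) and 0.37 (SE 0.11), whereas the hinge protein Uqcrh was higher in macrophages (-0.89, SE 0.11). Uqcrb differed by 0.09 (SE 0.11, limma adjusted p = 0.435) and its 3 probes disagreed in sign, at 0.18, 0.12 and -0.02. The calls of Uqcrq (0.60), Uqcr10 and Uqcr11 (0.19) were all lost with median centring. Cycs, whose promoter carries the NRF1 core, had ratios of -0.44 (NT), -0.65 (C), -0.56 (S) and -0.49 (CS) in 3T3-L1 and 0.22, 0.12, 0.28 and 0.21 in macrophages, and was 1.67-fold higher in macrophages (-0.74, SE 0.10, limma adjusted p = 8.02e-05).

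**Figure D2:**
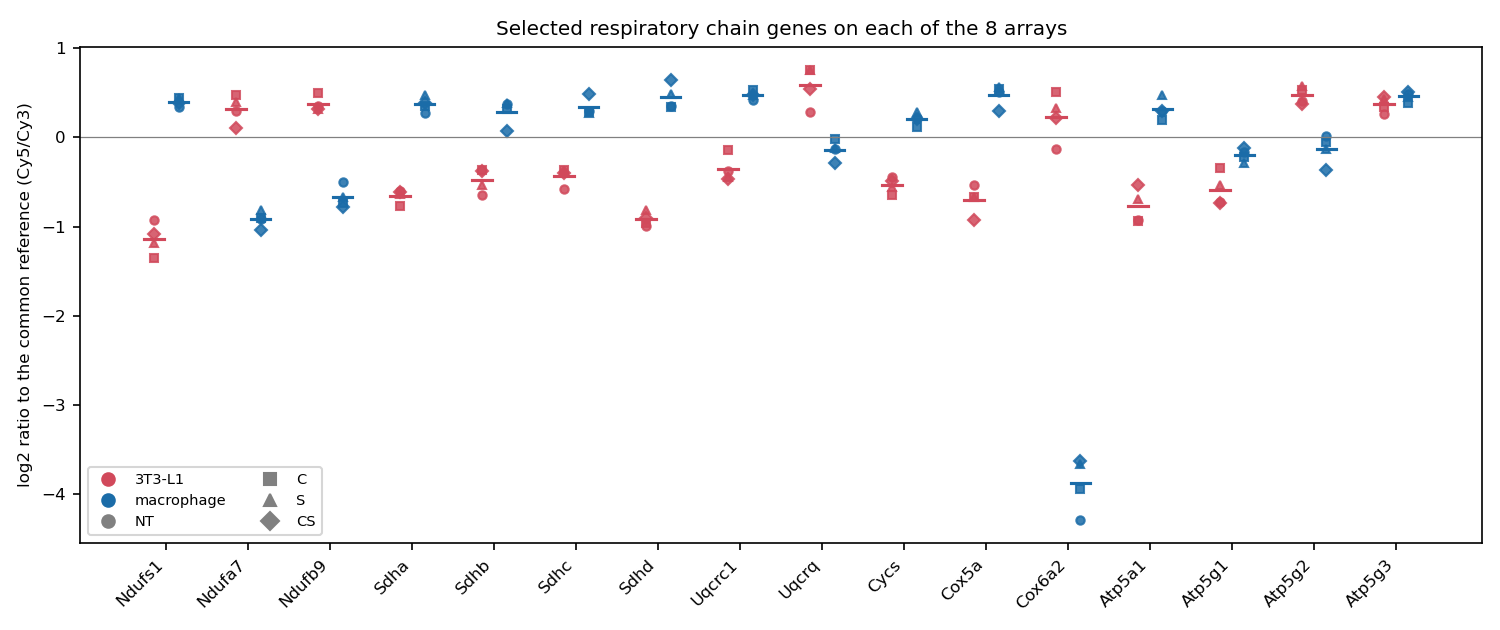
Log2 ratio of Cy5 to Cy3 (vertical axis) for 16 genes on each of the 8 arrays, with colours for the cell line, symbols for the treatment as labelled, and horizontal bars for the mean of 4 arrays. The 4 complex II genes sit below 0 on every 3T3-L1 array and above 0 on every macrophage array, and the macrophage points of Cox6a2 lie between -4.29 and -3.63.

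In complex IV, cytochrome c oxidase, several subunits come as isoforms with tissue-specific use, and these held the largest difference of all members. Cox6a2, the heart and skeletal muscle isoform of subunit VIa, had ratios of -0.13 (NT), 0.51 (C), 0.33 (S) and 0.22 (CS) in 3T3-L1, and -4.29, -3.94, -3.66 and -3.63 in macrophages. The 3T3-L1 arrays were 17.3-fold above the macrophage arrays (4.11, SE 0.12, limma adjusted p = 6.99e-10). In the scanner's units, the median Cy5 signal of its probe was 3281 to 5714 on 3T3-L1 arrays and 210 to 282 on macrophage arrays, over a background of 23 to 29, while the reference channel read 4330 to 6994. The difference ranged from 3.63 to 4.44 over all settings tried. Fibroblast markers differed between the lines in the same direction (median 6.11 over 6 measured of 12, all 6 called).

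Cox6a1, the widely expressed isoform of the same subunit, did not share this pattern. It was usable on 2 of the 3T3-L1 arrays, at 0.03 and -0.11, and lay between 0.10 and 0.26 on the macrophage arrays. With outlier spots kept it differed by -0.28 (SE 0.11, limma adjusted p = 0.0334), so that the pair of isoforms had opposite signs in that fit. The other pairs differed less. Cox7a2, the liver-type isoform of subunit VIIa, was higher in macrophages (-0.53, SE 0.11), and the muscle-type Cox7a1 did not pass the test (0.23, SE 0.11, limma adjusted p = 0.0776), nor did the related supercomplex factor Cox7a2l (-0.24, SE 0.10, limma adjusted p = 0.0507). Cox6b1 and the testis isoform Cox6b2 did not pass either, at 0.13 (SE 0.15) and -0.08 (SE 0.12). In the Cy5 channel alone, Cox6b1 was called higher in 3T3-L1 (1.33, limma adjusted p = 0.00145) and Cox7a2l higher in macrophages (-0.64, limma adjusted p = 0.00812); Cox7a2l also passed with outlier spots kept (-0.24, limma adjusted p = 0.0489) and with line as the sole term (-0.24, limma adjusted p = 0.0365). Cox4i1, the common form of subunit IV, had -0.34, -0.09 and -0.22 on 3 of the 3T3-L1 arrays and -0.05 to 0.12 on the macrophage arrays; its hypoxia- and lung-associated counterpart Cox4i2 was above background in both channels on 1 array only.

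Of the remaining complex IV genes, Cox5a was 2.26-fold higher in macrophages (-1.18, SE 0.10, limma adjusted p = 2.42e-06), with -0.93 to -0.53 in 3T3-L1 and 0.29 to 0.56 in macrophages. Cox6c, Cox7c and Cox8a were slightly higher in 3T3-L1, by 0.31, 0.31 and 0.28. The sign of Cox7c and Cox8a turned in the Cy5 channel alone (-0.12 and -0.09). Without the arrays labelled C and S, Cox7c was at 1.07, where a second, dimmer probe entered its mean. Ndufa4, named as a complex I gene but now counted as a subunit of complex IV, differed by 0.14 (SE 0.11) and did not pass. Its homologue Ndufa4l2, known as a hypoxia-induced gene, was above background in Cy5 on all 4 of the 3T3-L1 arrays and none of the macrophage arrays. Its mean normalised Cy5 signal was 1.44-fold higher in 3T3-L1, from dim spots and outside the test. In the scanner's units the macrophage array labelled S (88) lay above the 3T3-L1 arrays NT (71) and CS (86).

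In complex V, ATP synthase, 7 of 14 measured genes were higher in macrophages and 3 higher in 3T3-L1, with a median of -0.24 (0.00 in the Cy5 channel alone). With that channel 3 genes of complex V were called towards macrophages, Atp5a1 and Atp5e among them, and 1 towards 3T3-L1. Of all 10995 genes, 4124 and 2856 were then called in these directions. With median centring 5 genes of complex V were called towards macrophages and none towards 3T3-L1, against 3038 and 1952 of all 10995 genes. The catalytic F1 head gave Atp5a1 at 2.13-fold (-1.09, SE 0.11, limma adjusted p = 7.65e-06), Atp5c1 at 2.12-fold (-1.08, SE 0.11) and Atp5e (-0.58, SE 0.14) towards macrophages, and Atp5d towards 3T3-L1 (0.53, SE 0.12). Atp5a1 read -0.93 (NT), -0.94 (C), -0.69 (S) and -0.54 (CS) in 3T3-L1 and 0.19 to 0.48 in macrophages. Atp5b, the catalytic beta subunit, was usable on 2 of the 3T3-L1 arrays, at -0.41 and -0.16, against 0.29 to 0.49 in macrophages.

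The membrane-embedded c ring is encoded by 3 genes that give the same mature protein, and these went apart. Atp5g1 was higher in macrophages (-0.39, SE 0.12, limma adjusted p = 0.0135; not called without either NT or either CS array), Atp5g2 higher in 3T3-L1 (0.61, SE 0.11, limma adjusted p = 5.07e-04), and Atp5g3 did not pass (-0.09, SE 0.10, limma adjusted p = 0.433). Atp5g2 read 0.41 (NT), 0.53 (C), 0.58 (S) and 0.37 (CS) in 3T3-L1 and 0.01, -0.05, -0.13 and -0.37 in macrophages, whereas Atp5g1 read -0.74 to -0.34 against -0.29 to -0.12. Their 3 promoters, printed above, differ in the motifs searched. Across all members with the NRF1 core, 3 were higher in 3T3-L1, 3 higher in macrophages and 2 did not pass, of 8 measured. The call of Atp5g2 was lost with median centring (0.51) and in the Cy5 channel alone (0.40). In the peripheral stalk, Atp5pb was higher in macrophages (-0.66, SE 0.10), while Atp5h (-0.09) and Atp5o (-0.08) did not pass; both probes of Atp5h disagreed, at 0.06 and -0.23.

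With the outlier spots kept, 80 genes could be tested, and 21 were higher in 3T3-L1 and 35 in macrophages. The share of all genes called was not computed for this fit. In that fit Ndufa13, a complex I subunit also known for a role in cell death, was higher in 3T3-L1 by 0.95 (SE 0.11), and Ndufa10, Cox5b and Atp5b were higher in macrophages, with differences of -0.74, -0.74 and -0.58.

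Genes that build or feed the chain were set beside it, from lists chosen with earlier results known. For comparison, 38.0% of all genes were higher in 3T3-L1 and 36.3% higher in macrophages. Of 39 measured assembly factors of the complexes, 7 (17.9%) were higher in 3T3-L1 and 27 (69.2%) higher in macrophages, with a median of -0.49. Tmem70, which assembles ATP synthase, differed by -1.31 (SE 0.13), and Foxred1 and Nubpl, both complex I assembly factors, by -1.23 (SE 0.11) and -1.21 (SE 0.12). Cox14, a complex IV assembly factor, differed by 1.05 (SE 0.12). All 4 passed the test.

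Of 14 genes of the citric acid cycle and pyruvate dehydrogenase, 10 (71.4%) were higher in macrophages and 1, Pdha1 (0.82, SE 0.12), in 3T3-L1. Idh3a, the catalytic subunit of NAD-dependent isocitrate dehydrogenase, differed by -2.28 (SE 0.10), Pdhb by -1.72 (SE 0.13) and Dld by -1.58 (SE 0.16). In a list of 15 measured genes of carriers and electron entry, 3 (20.0%) were higher in 3T3-L1 and 9 (60.0%) in macrophages. The list also held the complex I subunits Ndufc1, which was not measured on all arrays, and Ndufc2 (-0.11, SE 0.11), which did not pass. The adenine nucleotide carriers went apart: Slc25a4, the heart and muscle form, was 2.87-fold higher in 3T3-L1 (1.52, SE 0.12) and Slc25a5 was 2.68-fold higher in macrophages (-1.42, SE 0.12). Ucp2, an inner-membrane carrier of the uncoupling protein family, was 6.27-fold higher in macrophages (-2.65, SE 0.11).

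Of 70 genes of the mitochondrial ribosome, which makes the mitochondrially encoded subunits, 9 (12.9%) were higher in 3T3-L1 and 38 (54.3%) in macrophages. Mrpl15 showed the largest difference of these, -1.97 (SE 0.12), and Mrpl14 was higher in 3T3-L1 (0.74, SE 0.10). Of 13 regulators of mitochondrial biogenesis, 1 (7.7%; Gabpb1, 0.34, SE 0.10) was higher in 3T3-L1 and 7 (53.8%) in macrophages. Tfb1m, a mitochondrial rRNA methyltransferase, differed by -2.36 (SE 0.10), and the mitochondrial transcription factor Tfam by -0.41 (SE 0.12), whereas Nrf1 (0.05, SE 0.10) did not pass. The 53 measured genes of the cytosolic ribosome had 16 calls towards 3T3-L1 (30.2%) and 9 towards macrophages (17.0%), against 38.0% and 36.3% of all genes. That order turned with the Feature Extraction ratio (11 and 12) and with median centring (4 and 6). No probe could be matched by name to a subunit encoded in mitochondrial DNA. The paper's supplement lists ATP8, the symbol of such a subunit, among its genes. Whether probes for these subunits lay among the names left unmatched was not tested.

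The medians of the assembly factors, the citric acid cycle list, the carriers, the mitochondrial ribosome and the regulators were below 0 under each of the 5 scalings. The median of complex I was 0.06 to 0.07 under 4 of them and -0.09 with median centring. That of complex IV was 0.13 and 0.15 under 2 of them and below 0 under the other 3 (-0.02, -0.11 and -0.12). Over all genes the median was 0.04 with loess, -0.05 with the Feature Extraction ratio and 0.05 without background correction. It was -0.14 with median centring and with the Cy5 channel alone. The medians of complexes I and IV lay above that of all genes under each scaling, and those of the lists just named lay below it.

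**Figure D3:**
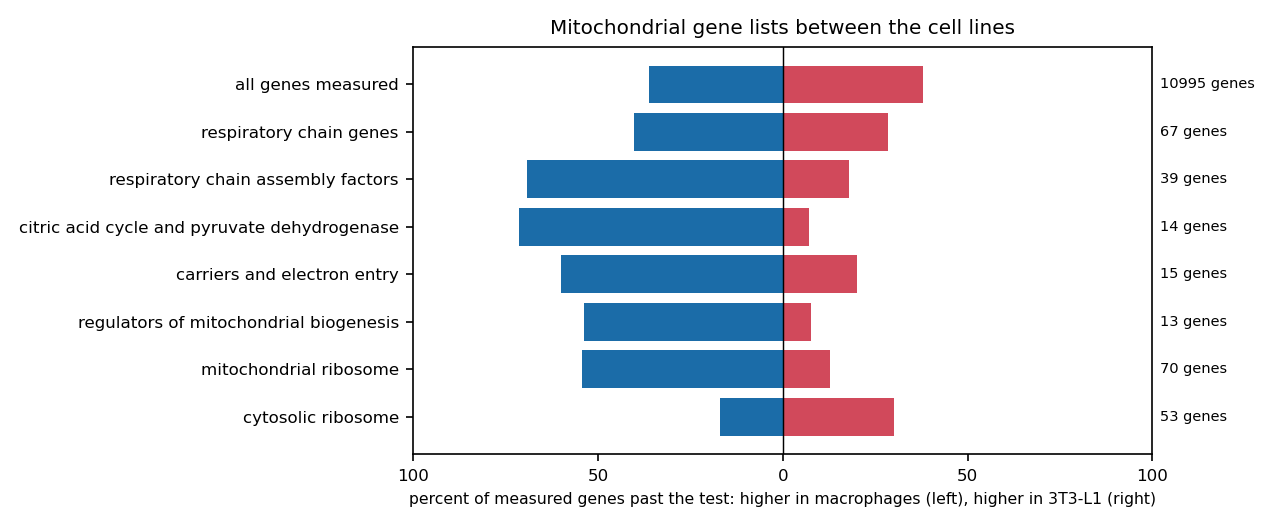
Percent of measured genes past the test between the lines (horizontal axis), to the left higher in macrophages and to the right higher in 3T3-L1, for all genes, the respiratory chain genes and 6 related lists, with the number of measured genes at the right. The respiratory chain genes have bars of 40.3% and 28.4%, whereas 69.2% of the assembly factors are on the macrophage side.

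The treated arrays were each set against the NT array of their own line. With 1 array per condition these differences have no replicate check, and the error given is that of the scanner software for the difference. No measured member reached a 2-fold difference on any treated array, where the shares of all genes were 0.515% higher and 0.728% lower on the 3T3-L1 array labelled S, 0.416% and 1.23% on C, and 0.784% and 0.642% on CS. In macrophages those shares were 0.638% and 0.276% on S, 0.0377% and 0.0453% on C, and 0.180% and 0.0749% on CS. The paper's supplement lists 2 members beyond 2-fold in co-cultured 3T3-L1, Uqcrc2 for C and CS and Cox5b for CS. Its values for Uqcrc2 lie well beyond that threshold on both. Here Uqcrc2 was at 0.03 on C (1.02-fold) and 0.02 on CS (1.01-fold), so its change in the supplement was not found. Cox5b had no usable NT value in 3T3-L1. The reason for the difference was not tested.

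In 3T3-L1, 57 of 76 members measured there lay above NT on the array labelled S, with a median difference of 0.16, and 59 of 74 on the array labelled C, with a median of 0.16. On the CS array 46 of 76 lay above NT, with a median of 0.05. The medians over all genes were 0.01, 0.01 and 0.02. The 3 comparisons share the NT array, so a low or high value there moves all of them. The cytosolic ribosome genes had medians of 0.25, 0.20 and 0.18 on the same arrays, and the mitochondrial ribosome 0.08, 0.12 and 0.01. With median centring in place of loess, the member medians relative to all genes were 0.49 (S), 0.53 (C) and 0.22 (CS).

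By complex, the 3T3-L1 medians on the array labelled S were 0.10 for complex I, 0.14 for II, 0.19 for III, 0.16 for IV and 0.20 for V, and all 16 measured genes of complex V were above NT. On the array labelled C they were 0.13, 0.12, 0.22, 0.22 and 0.15. On the CS array they were -0.01, 0.13, 0.04, 0.03 and 0.15. Cycs lay below NT on all 3, at -0.12, -0.21 and -0.05.

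Single members passed 1.5-fold on 2 of the 3T3-L1 arrays. On the array labelled S only Cox6b1 did so, at 1.55-fold (0.63, error 0.30), where 3.60% of all genes were 1.5-fold higher. On the array labelled C there were 4, against 4.07% of all genes: Cox6a2 at 1.56-fold (0.64, error 0.29), Ndufs8 at 1.55-fold (0.63, error 0.31), Cox6b1 at 1.52-fold (0.61, error 0.30) and Ndufb2 at 1.52-fold (0.60, error 0.32). None was 1.5-fold lower, against 4.67% of all genes on S and 7.06% on C. No member passed 1.5-fold in either direction on the CS array, where the shares of all genes were 3.81% and 3.89%. The largest values there were 0.51 for Ndufs8, 0.38 for Atp5a1 and 0.36 for Ndufb5, and the lowest was -0.40 for Cox5a (error 0.31). Below NT on S and C were Ndufs1 (-0.26 and -0.41, error 0.32 for each) and Ndufv3 (-0.25 on both, error 0.22), and Ndufa13 was at -0.39 on S (error 0.29).

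In macrophages the member medians were -0.01 on the array labelled S (36 of 76 above NT), 0.00 on C (39 of 80) and -0.05 on CS (27 of 78), against -0.04, 0.02 and 0.00 over all genes. With the Cy5 channel alone the S median relative to all genes was -0.19. Cox6a2 was the 1.5-fold higher member on S at 1.54-fold (0.63, error 0.64) and on CS at 1.58-fold (0.66, error 0.63), where 2.13% and 1.18% of all genes were that high. Its value on C was 0.35 (error 0.65), and no member reached 1.5-fold on that array (0.324% of all genes higher, 0.460% lower). The scanner errors were larger for Cox6a2 in macrophages, where its signal is dim, than in 3T3-L1.

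The lower members in macrophages were Ndufs8 on S, 1.61-fold lower (-0.69, error 0.29; 1.95% of all genes were 1.5-fold lower), and Cox7c on CS, 1.54-fold lower (-0.62, error 0.25; 0.973%). The Cox7c value averaged a bright probe at -0.31, the one used between the lines, with a dimmer probe at -0.93, above background on 6 of 8 arrays, so the bright probe alone did not reach 1.5-fold. Ndufb2 was at -0.49 on S (error 0.32), and Atp5e and Atp5g2 were at -0.39 and -0.38 on CS. The probes of Atp5g2 differed there, at -0.07 and -0.69. Of the fibroblast markers on these macrophage arrays, 8 of 9 measured lay above NT on S, with a median of 0.64, and 6 of 7 on CS, with a median of 0.36, against 6 of 10 and 0.21 on C. Col3a1 read -4.82 on S against -6.82 on NT. The summed signal of the 12 markers was 11700 units on NT, 11000 on S and on C, and 11900 on CS. In Cy5, 9 of the 12 were above background on all 4 macrophage arrays (Col1a2, Col3a1, Pdgfrb, Thy1, Dlk1, Fn1, Sparc, Dcn and Fbln2) and Col1a1 on 3, whereas Pdgfra was above it on no macrophage array and Lum on none of the 8 arrays. The part of fibroblast RNA in the Cox6a2 values was not tested. In the Cy5 channel alone, Cox6a2 was at 0.32 on S and 0.18 on CS.

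**Figure D4:**
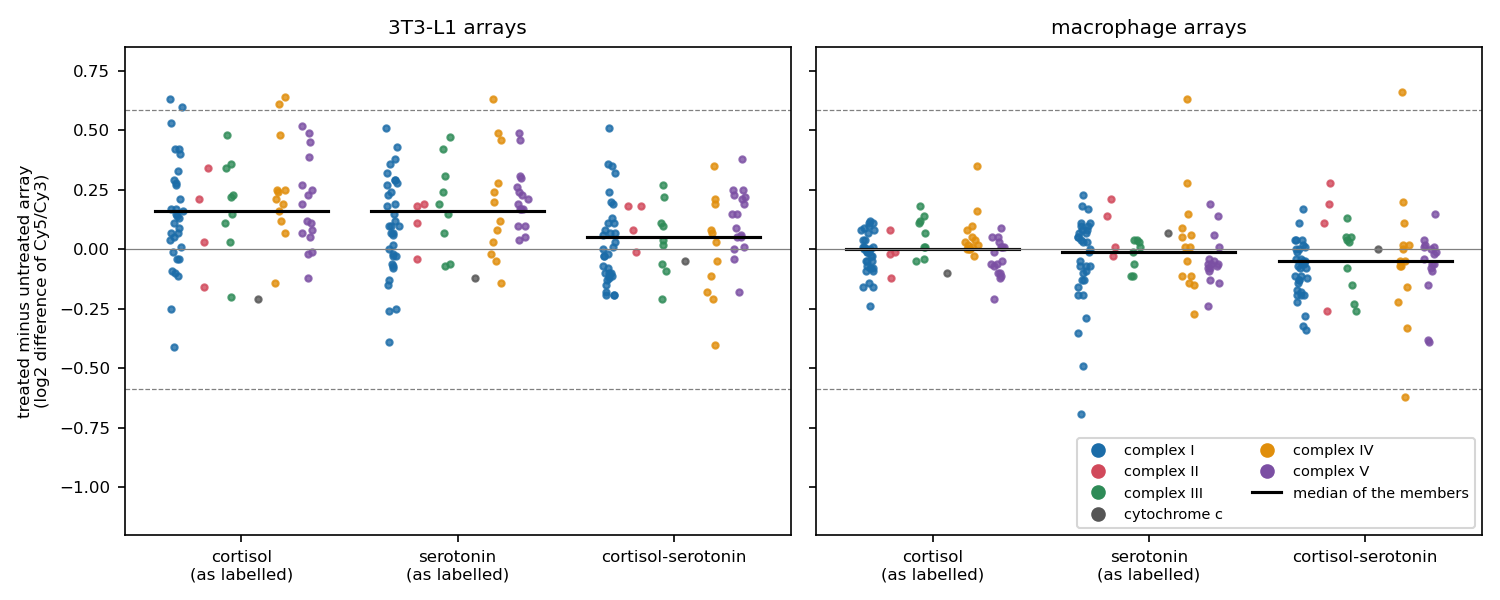
Treated minus NT array of the same line (log2 difference, vertical axis) for each measured member, in 3T3-L1 (left) and macrophages (right), by treatment as labelled. Points are genes coloured by complex, black lines are medians and dashed lines mark 1.5-fold; the medians are for C, S and CS 0.16, 0.16 and 0.05 in 3T3-L1 and 0.00, -0.01 and -0.05 in macrophages.

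Across both lines together, where each treatment had 2 arrays, limma called no member for C, S or CS (0% of all 10995 genes were called for any of them). At an unadjusted p under 0.05, 1 of 67 members passed for each, against 3.99%, 4.99% and 3.90% of all genes, and it was Cox6a2 each time. Its common effects were 0.50 (SE 0.17, limma adjusted p = 0.883) for C, 0.54 (SE 0.17, adjusted p = 0.860) for S and 0.51 (SE 0.17, adjusted p = 1) for CS, and it was higher than NT on 6 of 6 treated arrays. These 3 estimates share the NT arrays, which held the lowest Cox6a2 value of each line.

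Whether a hormone acted differently in the lines was tested with an interaction of line with cortisol and with serotonin, as labelled. That fit had no term for the hormones acting together, so CS was modelled as the sum of the C and S effects. No member passed (0% of all genes), and the smallest unadjusted values belonged to Atp5e for cortisol (difference 0.59, SE 0.25, limma adjusted p = 0.980) and Uqcrfs1 for serotonin (0.48, SE 0.19, limma adjusted p = 0.642). Unadjusted, 1 of 67 passed for each, against 2.54% and 7.49% of all genes. Tested on simulated data with 10995 genes, the common effect of C was recovered for 93% of genes changed by 1 on the log2 scale and for 8% of those changed by 0.5, so that effects of the size seen here in single members would mostly not be called.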

How the data were processed

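RNA of both co-cultured lines was hybridised to 8 two-colour Agilent arrays, 1 per line and treatment, with nothing to say that further cultures were used, so p-values measure the spread between arrays. The deposited scanner files, made by the authors with Agilent Feature Extraction (10.5.1.1 by the submitters' processing notes), hold median signal and background intensity for both channels and a log10 ratio, the log10 of Cy5 over Cy3, with its error. The deposited series matrix held the same log10 ratios to within 0.005 and was not used further. The p-values in the files compare sample with reference and were not used.

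With limma 3.58.1 (R 4.3.3), normexp (offset 50) corrected the intensities and a loess curve per array balanced the dyes, on median signals because mean signals were not among the columns; control and outlier spots were left out, and spots of a probe were averaged. Probe accessions were matched to RefSeq (GRCm38.p6, names only): 27508 of 39429 probes (69.8%) matched 20886 genes. Probes that cleared background in Cy5 and Cy3 on every array of a comparison were averaged per gene; 23 members had several probes. The reference is described differently in the labels and the study's methods. Differences of ratios assume the same reference RNA on both slides, which was not tested; Cy5 alone was one of the alternatives. No spot was saturated; median Cy5 signals were 51 to 103 over backgrounds of 26.5 to 28, and the number of arrays limits the precision.

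The line difference and common treatment effects came from limma with line and treatment as terms (3 residual degrees of freedom), and the interaction from a fit with cortisol and serotonin within line (2), with Benjamini-Hochberg adjustment over all 10995 genes at 0.05. On simulated data with 10995 genes, a line difference of 0.5 was recovered for 52% and of 1 for 100% of changed genes. Single treated arrays were counted at 1.5-fold and 2-fold. The text names the 6 largest line differences each way, the 3 largest values each way per treated array, isoform sets, complex II, Cyc1, Uqcrfs1 and Cycs, members below background in 1 line, members with disagreeing probes, and up to 4 genes of a list; members named besides these, such as the small subunits of complex III, the core subunits, the c ring genes and the genes with outlier spots, were chosen after their values were seen. The values of 1 measured member are not reported here. Members and lists were chosen with earlier results of these data known. Alternatives were the Feature Extraction ratio, median centring, no background correction, Cy5 alone, no filter, the brightest probe, the line alone, each array left out and, chosen after seeing the data, outlier spots kept and the arrays labelled C and S left out.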

Additional observations from a re-analysis of the deposited data

Results flagged for a closer look

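For 5 of 43 named members, all 3 treated arrays lay on one side of NT in 3T3-L1 and on the other side in macrophages; the 3 comparisons of a line share its NT array. The same held for 6 of 67 members measured (8.96%) and for 11.6% of all 11040 genes measured on these arrays. The mean differences from NT in 3T3-L1 and macrophages were 0.55 and -0.35 for Ndufs8, -0.27 and 0.08 for Ndufs1, 0.32 and -0.07 for Atp5l, 0.22 and -0.23 for Ndufa8, and -0.07 and 0.13 for Sdha. The interaction of line with serotonin gave 0.55 for Ndufs8 (limma adjusted p = 0.716) and 0.29 for Atp5l (limma adjusted p = 0.797), and no interaction of these 5 genes with cortisol or serotonin passed the test. The array medians of the members, of each complex and of Cycs gave 14 sets of 4 arrays, and in none did 1 array stand apart from the others by Dixon's criterion.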

How the results depend on the processing

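Leaving out each array in turn gave 13 to 19 members higher in 3T3-L1, 24 to 28 higher in macrophages, a median relative to all genes of -0.18 to -0.09 (-0.12 with all arrays), and all 4 complex II genes higher in macrophages. Shares of all genes called between the lines were not computed for fits with arrays left out. Median centring gave 4 members higher in 3T3-L1, and relative medians against NT of 0.49, 0.53 and 0.22 for S, C and CS in 3T3-L1 and -0.14 for S in macrophages, with 21, 22 and 3 members (27.6%, 29.7% and 3.95%) at 1.5-fold or more on those 3T3-L1 arrays, against 22.8%, 18.8% and 16.8% of all genes. The Cy5 channel alone gave 11 members higher in 3T3-L1, a relative median of 0.05 between the lines and of -0.19 for S in macrophages; members at 1.5-fold or more were then 8 of 76 (S) and 7 of 76 (CS) in 3T3-L1, against 13.6% and 15.5% of all genes, and 23 (S; 30.3%), 4 (C; 5%) and 23 (CS; 29.5%) in macrophages, against 26.2%, 3.39% and 17.7%. At 2-fold they were 1 and 2 in 3T3-L1 (all genes 3.09% and 4.44%), and 9, 1 and 4 in macrophages (all genes 8.21%, 0.845% and 5.19%). Without background correction 0 members on S and 2 on C of 3T3-L1 reached 1.5-fold (all genes 8.4% and 12.5%). On the macrophage CS array this count was 1 with the Feature Extraction ratio and 1 without the filter (all genes 5.67% and 1.99%). Without the arrays labelled C and S the count higher in 3T3-L1 was 12 and the relative median -0.24.

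Sign changes and gained calls of single genes were followed only for the measured members among the 43 named by rule. Line differences of the following members changed sign. Of them, Atp5l, Cox7c, Cox8a and Uqcrfs1 had passed the test with loess, and the others had not. With median centring they were Cox6b1 -0.11, Ndufb5 -0.09, Cox7a1 -0.02, Ndufb2 0.00, Ndufa4 -0.03 and Uqcrb -0.12. With Cy5 alone they were Atp5l 0.10, Ndufb5 -0.20, Cox7a1 -0.23, Ndufa8 0.94, Cox7c -0.12, Cox8a -0.09, Uqcrfs1 0.26, Atp5h 0.43 and Uqcrb -0.11. The Feature Extraction ratio gave Cox6b1 -0.02, the brightest probe Atp5h 0.06 and Uqcrb -0.02, and leaving out single arrays moved Ndufa8 between -0.13 and 0.07. Of the 46 calls between the lines, 37 held with each array left out in turn and 9 were lost in at least 1 case. Towards 3T3-L1 these were Atp5j2 (without either array labelled S), Cox6c and Cox8a (either S or either C), Cox7c (either S or either CS), Uqcr10 (any S, C or CS array) and Uqcr11 (either S, or macrophage C). Towards macrophages they were Ndufa2 (either NT), Atp5g1 (either NT or either CS) and Ndufb11 (any NT, S or CS array). In the Cy5 channel alone, calls were gained among the members named by rule by Cox6b1 (1.33), Ndufb2 (0.96), Ndufa8 (0.94) and Cox7a2l (-0.64). Without the arrays labelled C and S, Cox6b1 was -0.21 and Ndufb2 -0.09. The cause was not tested. No paired analysis was possible because the labels give no replicate numbers; the treatment term already sets the lines side by side within each treatment, and without it 19 members were called towards 3T3-L1 and 28 towards macrophages. Leaving out an array could not be done for single treated arrays against NT.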
